A study of Mus musculus with 12 samples.

Results

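The genes described here encode amino acid transporters, proteins that carry amino acids and a few related molecules across the plasma membrane and out of the lysosome. They were chosen by gene symbol from the solute carrier (SLC) families, with earlier results of these data known. The rule itself uses no measured value. All 30 symbols were found among the 55487 genes of the count table. All 30 also passed the filter on low counts that left 18134 genes for testing. Of the 30, 2 had a mean under 1 CPM (the count scaled to library size) over the libraries, Slc1a2 and Slc38a3.

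Polyadenylated RNA was sequenced from cells of the mouse embryonic stem (ES) cell line E14 Tg2a, in which 3 independent clones labelled as Pcbp1 knockouts (KO) were compared with 3 independent control clones, labelled WT and called Scr in the series text. PCBP1 is an RNA-binding protein that binds C-rich RNA and acts in splicing, translation and mRNA stability. Every clone was grown in serum-free N2B27 medium with LIF, the MEK inhibitor PD0325901 and the GSK3β inhibitor CHIR99021, which hold ES cells in the naive state. Epiblast-like cells (EpiLCs), a model of the formative state that follows, came from 48 h in N2B27 with bFGF, Activin A and 1% KOSR on fibronectin. The 4 groups, each of 3 libraries, are called naive WT and naive KO, and EpiLC WT and EpiLC KO. Total counts ran from 27146744 to 42204511 per library.

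Amino acids cross membranes through transporters that differ in substrate, in coupling to sodium or protons, and in whether they import or exchange. Exchangers such as ASCT2 and LAT1 trade one amino acid for another, and net loaders such as SNAT2 use the sodium gradient to fill the cell. Proliferating cells, ES cells among them, depend on this uptake for protein and nucleotide synthesis and for mTORC1 signalling. Many transporter genes are known targets of the transcription factor ATF4, which is translated when amino acids run short.

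Levels are given as RPKM, counts per kilobase of summed exon length, scaled to the library size after TMM normalisation, so that genes can be compared. Changes are log2 fold changes with standard errors from the edgeR fit over all 12 libraries, and a gene counts as called where its p, adjusted across the 18134 genes by the Benjamini-Hochberg method, was under 0.05. Means are given with SD, and n is 3 libraries in every group.

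In EpiLCs, 10 of the 30 transporter genes fell in KO against WT and none rose. Over all genes tested, 7.86% fell and 7.22% rose in the same comparison, by the same adjusted threshold. Of the 30, 16 had an unadjusted edgeR p under 0.05, and the share of all genes under that value was not computed. The 10 that fell were the glutamine exchanger gene Slc1a5 and its relative Slc1a4, the CD98 complex genes Slc3a2, Slc7a5 and Slc7a6, the cationic transporter genes Slc7a1 and Slc7a3, the SLC38 genes Slc38a2 and Slc38a7, and the creatine transporter gene Slc6a8. Their log2 fold changes ran from -0.42 for Slc38a2 to -1.24 for Slc1a5. The median over the 30 genes was -0.26, and the median over all genes tested was 0.00. The KO libraries were all lower than the WT libraries for 13 of the 30 and all higher for 3, beside 17.2% and 16.1% of the genes tested. In bulk RNA, fewer cells of a type and less RNA per cell cannot be told apart.

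In naive cells, 4 of the 30 fell in KO and none rose, beside 4.95% of all genes that fell and 4.27% that rose. An unadjusted p under 0.05 was found for 7 of the 30, again with no share over all genes computed. The 4 that fell were Slc1a5, Slc7a3, Slc7a6 and the SLC36 family gene Slc36a4. Slc1a5, Slc7a3 and Slc7a6 thus fell in both conditions. The median log2 fold change of the 30 was -0.21 in naive cells. Without overlap between the groups, 6 of the 30 were lower in KO and 3 higher, beside 15.3% and 15.1% of the genes tested. The 6 include Slc1a2, whose naive libraries hold only 0 to 2 counts, so that its separation carries little weight.

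**Figure D1:**
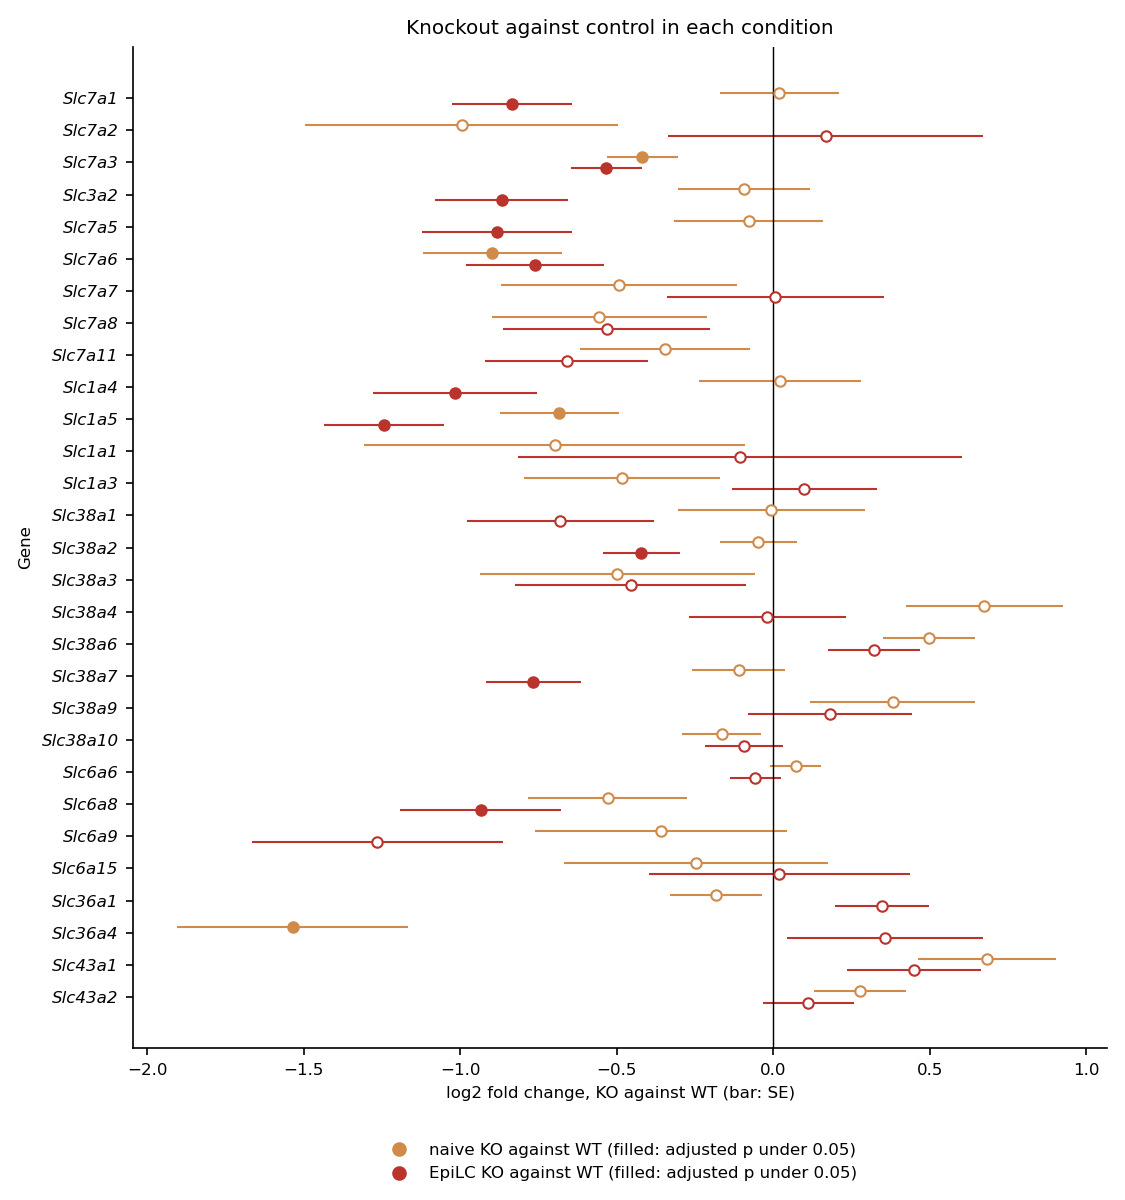
Log2 fold change of KO against WT (x axis, with its standard error from edgeR) for the transporter genes (y axis, by role) in naive cells and in EpiLCs; filled points passed the test. Filled points of 10 genes lie below 0 in EpiLCs and of 4 in naive cells, no filled point lies above 0, and Slc1a2 is left out because its naive libraries hold 0 to 2 counts.

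Between naive cells and EpiLCs, 16 of the 30 rose and 6 fell in WT clones, where 26.4% of all genes rose and 26.3% fell. In KO clones, 11 rose and 9 fell, where 27.1% of all genes rose and 28.1% fell. The median log2 fold change of the 30 was 0.78 in WT and 0.32 in KO, beside medians over all genes of -0.01 and -0.04. Of the 30, 17 were called in the same direction in both genotypes, and the share of all genes so called was not computed. Slc1a2 is among the 16, the 11 and the 17, and with 0 to 2 counts in its naive libraries its calls carry little weight. Slc1a4, Slc3a2, Slc7a5, Slc38a1 and Slc6a9 were called in WT clones and not in KO clones, and Slc1a5, Slc7a1 and Slc38a4 in KO clones and not in WT clones. The difference between the 2 transitions was itself tested by the interaction of genotype and condition. An unadjusted p under 0.05 was found for 8 of the 30, with no share over all genes computed. None of the 30 passed the adjusted threshold, beside 0.381% of all genes. No transporter gene is therefore shown to respond differently to the change of medium in KO and WT clones, and the missed threshold does not show that they respond alike. With no filter on low counts 4 passed, Slc1a4, Slc3a2, Slc7a1 and Slc7a5, each with a more negative change in KO (adjusted p from 0.00373 to 0.0145). Their interaction values hardly moved: -1.06, -0.80, -0.88 and -0.83 without the filter, beside -1.04, -0.77, -0.86 and -0.80 with it. The share of all genes that passed without the filter was not computed, and the cause of the added calls was not tested.

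**Figure D2:**
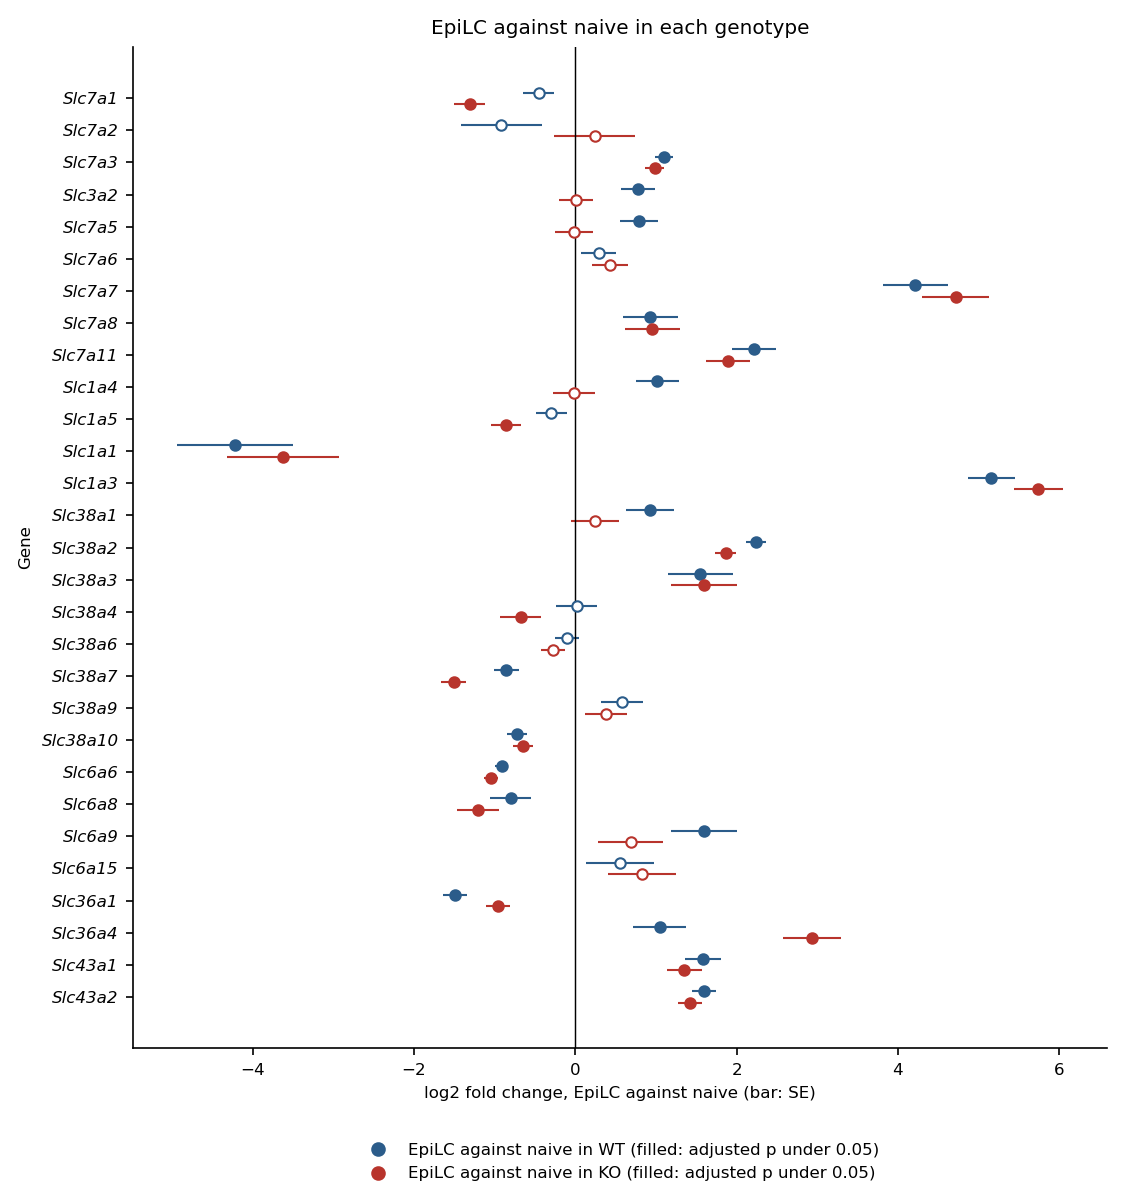
Log2 fold change of EpiLC against naive cells (x axis, with its standard error from edgeR) for the transporter genes (y axis, by role) in WT and in KO clones; filled points passed the test. Slc1a3 and Slc7a7 rose most in both genotypes among the genes drawn and Slc1a1 fell most, and Slc1a2 is left out because its naive libraries hold 0 to 2 counts.

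Some facts of the whole series touch these results. Pcbp1 itself, the targeted gene, fell in KO by 0.60 ± 0.111 on the log2 scale in naive cells and by 1.14 ± 0.112 in EpiLCs, so that KO libraries still held 250.3 to 302.9 CPM of its RNA. Markers of the naive state had a mean log2 CPM of 8.00 to 8.19 in naive libraries and 3.70 to 5.39 in EpiLC libraries. Of the 10 formative markers tested, all 10 rose in both transitions and none was called between KO and WT in EpiLCs. Markers of visceral and primitive endoderm moved with genotype in EpiLCs: 9 of the 12 tested rose in KO, with a mean log2 CPM of 2.45 to 2.79 in KO and 0.05 to 1.00 in WT. Their summed level overlapped between the groups (327.6 to 665.8 CPM in WT, 469.4 to 583.8 CPM in KO), and Amn, Foxa2, Ttr and Apoa1 stayed under 1 CPM in every library. In naive cells 2 of the 12 rose in KO, and the summed level was 309.9 to 335.8 CPM in WT and 566.6 to 854.8 CPM in KO. Their part in the transporter results was not tested. Of the other markers, 0 of 5 trophoblast, 0 of 6 fibroblast and 1 of 5 neuroectoderm genes (Neurod1, higher in KO) were called in EpiLC KO against WT. Their levels still separated in part by genotype: the summed fibroblast markers were 61.0 to 102.3 CPM in EpiLC WT and 149.2 to 157.8 CPM in EpiLC KO, and the trophoblast markers 19.24 to 31.94 CPM and 13.85 to 17.96 CPM. The neuroectoderm markers overlapped in their sum (36.7 to 85.1 CPM and 58.8 to 90.9 CPM) and not in their mean log2 CPM (2.14 to 2.81 and 2.94 to 3.53). Their part in the transporter results was not tested either. The library EpiLC WT replicate 2 stood apart, with a mean log2 CPM of the 11 naive markers of 5.39 where the other EpiLC WT libraries had 3.70 and 3.71. Without both libraries numbered 2 of the WT clones, 10 transporter genes still fell in EpiLC KO, 8 of them the same: Slc6a8 and Slc7a6 were lost and Slc6a9 and Slc7a11 gained. In naive cells only Slc36a4 then remained of the 4 that fell.

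**Figure D3:**
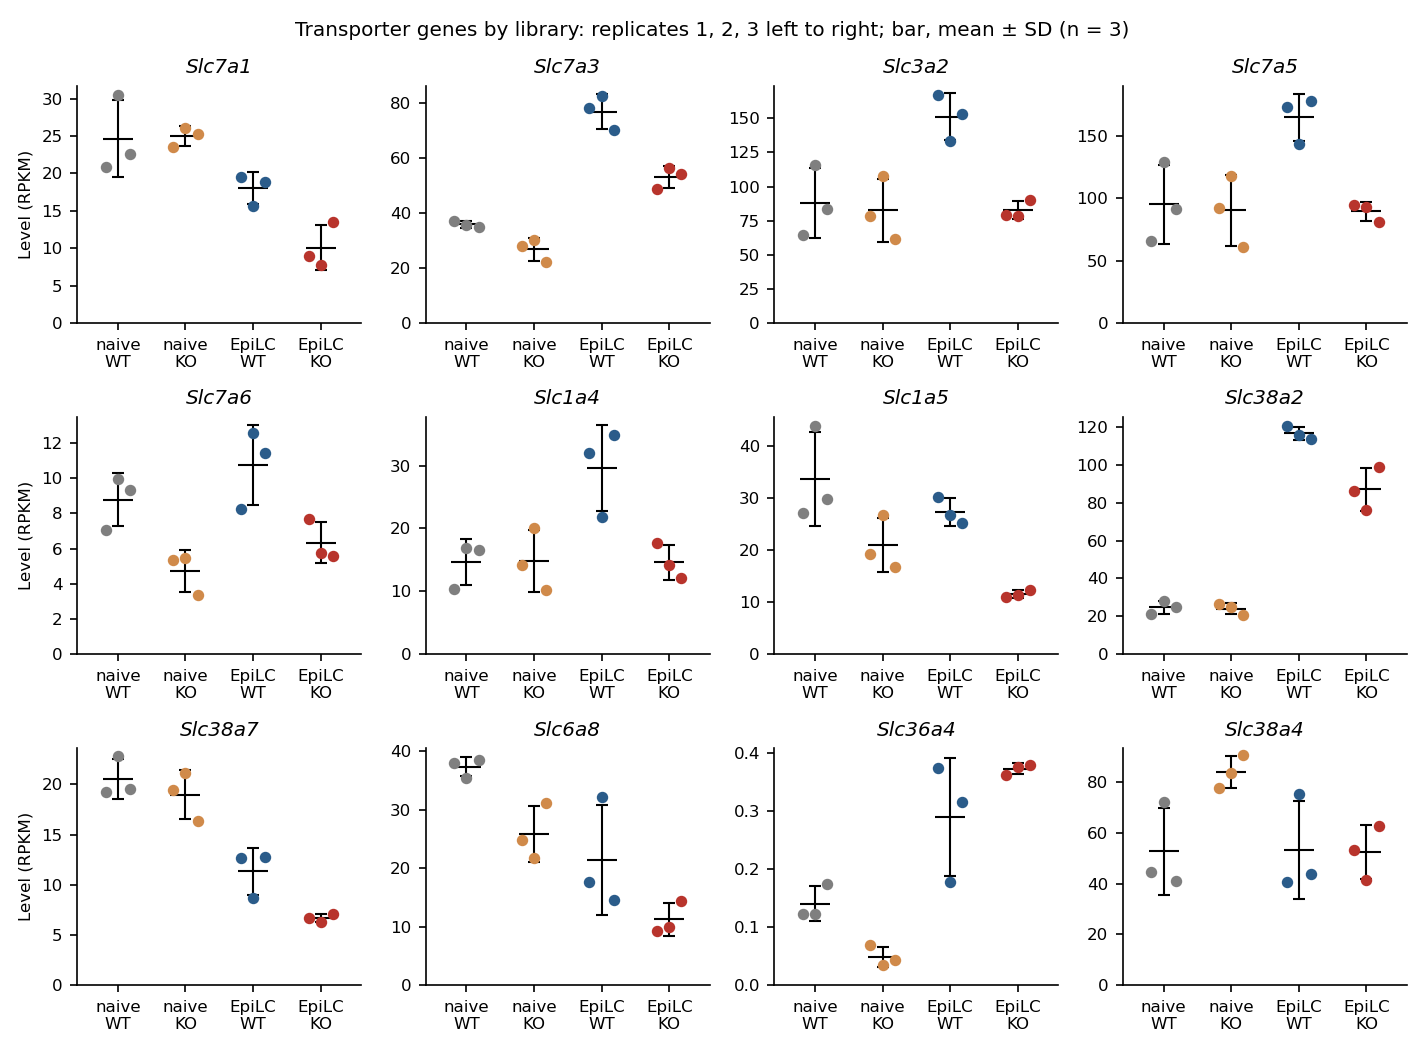
Level in RPKM (y axis) of 12 transporter genes in each library (points, replicates 1 to 3 from left to right) of the 4 groups (x axis), with bars for the mean and SD of 3 libraries. In EpiLCs the KO points of Slc3a2, Slc7a5, Slc1a4 and Slc1a5 lie below every WT point, and those of Slc38a4 do not.

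Over the 12 libraries the order of mean levels began with Slc7a5, Slc3a2, Slc38a2, Slc38a4 and Slc7a3, and ended with Slc1a2. These 5 made up 51.9% to 62.9% of the summed RPKM of all 30 genes in naive libraries and 66.5% to 72.2% in EpiLC libraries. The sum itself was 532 ± 95.2 RPKM in naive WT, 510.1 ± 63.3 in naive KO, 809.5 ± 48.7 in EpiLC WT and 546.2 ± 33.3 in EpiLC KO. The EpiLC WT libraries lay at 859.4, 762 and 807.2 RPKM and the EpiLC KO libraries at 537.2, 518.3 and 583.1 RPKM, with no overlap. Slc7a5 and Slc3a2 together carried 54.6% of the difference of 263.3 RPKM between the EpiLC group means.

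The cationic amino acid transporters CAT1 (Slc7a1), CAT2 (Slc7a2) and CAT3 (Slc7a3) bring in arginine, lysine and ornithine. Slc7a3, on the X chromosome, was higher in RPKM than Slc7a1 in every library except naive KO replicate 3. That order depends on the summed exon lengths, 3784 bases for Slc7a3 and 11530 for Slc7a1. In CPM, Slc7a1 was the higher in naive WT (mean 284.3 against 135.9) and Slc7a3 in EpiLC WT (291.5 against 207.7). The naive WT libraries of Slc7a3 held 37.2, 35.6 and 35.0 RPKM and its naive KO libraries 28.1, 30.3 and 22.3 RPKM. Its EpiLC WT libraries held 78.2, 82.6 and 70.2 RPKM and its EpiLC KO libraries 48.9, 56.5 and 54.2 RPKM. KO libraries were lower than WT libraries in both conditions with no overlap, and EpiLCs higher than naive cells in both genotypes. Slc7a3 fell in KO by 0.42 ± 0.114 on the log2 scale in naive cells (adjusted p = 0.0383) and by 0.53 ± 0.114 in EpiLCs (adjusted p = 0.00888), and rose from naive cells to EpiLCs by 1.10 ± 0.115 in WT. The EpiLC call held without any single one of the 12 libraries, while the naive call was lost on leaving out naive WT replicate 1, 2 or 3, naive KO replicate 1 or 3, or EpiLC KO replicate 2 or 3, at adjusted p from 0.0502 to 0.0794, and with only the groups compared in the fit (adjusted p = 0.0677).

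Slc7a1 had similar levels in naive WT (20.9, 30.5 and 22.6 RPKM) and naive KO (23.6, 26.1 and 25.3 RPKM), which overlapped. In EpiLCs its WT libraries held 19.6, 15.6 and 18.9 RPKM and its KO libraries 8.92, 7.81 and 13.6 RPKM, with no overlap. It fell by 0.84 ± 0.191 in EpiLC KO against WT (adjusted p = 0.0131), a call lost without EpiLC KO replicate 1 (-0.75, adjusted p = 0.0599). From naive cells to EpiLCs it fell by 1.31 ± 0.193 in KO (adjusted p = 9.8e-05), and had a log2 fold change of -0.45 ± 0.19 in WT (adjusted p = 0.0617). The WT change passed without naive WT replicate 1 or EpiLC KO replicate 2 or 3 (adjusted p from 0.0181 to 0.0445). It passed as well with no filter on low counts (adjusted p = 0.00775) and with only the groups compared in the fit (adjusted p = 0.042). With the GC trend removed and the clone as a block it also passed (adjusted p = 0.048). The level ratio of Slc7a3 to Slc7a1 was therefore 1.17 to 1.78 in naive WT, 0.88 to 1.19 in naive KO, 3.71 to 5.30 in EpiLC WT and 4.00 to 7.24 in EpiLC KO. Slc7a2 was low, at 0.342 ± 0.185 RPKM in naive WT and 0.202 RPKM or less on average in the other groups. It passed no test over all libraries, and fell in naive KO without naive KO replicate 3 (-1.84, adjusted p = 0.0306).

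The heavy chain of CD98 (Slc3a2) is a chaperone that carries a light chain to the surface. The light chains tested here are LAT1 (Slc7a5, leucine and other large neutral amino acids), LAT2 (Slc7a8), y+LAT1 (Slc7a7) and y+LAT2 (Slc7a6), which exchange cationic for neutral amino acids, and xCT (Slc7a11, cystine for glutamate). Slc3a2 libraries held 64.8, 116 and 83.8 RPKM in naive WT and 78.4, 108 and 61.5 RPKM in naive KO. In EpiLCs they held 167, 133 and 153 RPKM in WT and 79.4, 78.5 and 90.4 RPKM in KO. The naive groups overlapped fully, and the EpiLC groups were separated by a gap between 90.4 and 133 RPKM. Slc3a2 fell by 0.87 ± 0.212 in EpiLC KO (adjusted p = 0.0177), rose by 0.78 ± 0.212 from naive cells to EpiLCs in WT (adjusted p = 0.00783) and had a log2 fold change of 0.00 ± 0.211 in KO. The EpiLC KO call was lost on leaving out EpiLC WT replicate 1 or EpiLC KO replicate 1 or 2, at adjusted p from 0.0564 to 0.066.

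Slc7a5, on chromosome 8, followed its partner. Its libraries held 66.0, 129 and 91.2 RPKM in naive WT, 92.0, 118 and 61.2 RPKM in naive KO, 174, 143 and 178 RPKM in EpiLC WT and 94.4, 93.2 and 81.0 RPKM in EpiLC KO. It fell by 0.88 ± 0.239 in EpiLC KO (adjusted p = 0.0276), with no overlap, and rose by 0.79 ± 0.238 in the WT transition (adjusted p = 0.0137), against -0.01 ± 0.237 in KO. The EpiLC KO call was lost without EpiLC WT replicate 1 or 3 or any of the EpiLC KO replicates (adjusted p from 0.0632 to 0.0873) and when the trend of fold change with GC content was removed (-0.72, adjusted p = 0.0612). The rise in WT was lost without naive WT replicate 1 (0.57, adjusted p = 0.0587). Within each library the 2 genes kept a level ratio of 0.90 to 1.19, so that a library high for the heavy chain, such as naive WT replicate 2, was also high for LAT1.

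The other light chain genes had lower levels than LAT1 in every library. Slc7a6 fell in KO in both conditions: its libraries held 7.06, 9.97 and 9.32 RPKM in naive WT and 5.33, 5.46 and 3.35 RPKM in naive KO, a change of -0.90 ± 0.222 (adjusted p = 0.025). In EpiLCs they held 8.23, 12.6 and 11.5 RPKM in WT and 7.71, 5.72 and 5.58 RPKM in KO, a change of -0.76 ± 0.22 (adjusted p = 0.0364). Neither pair of groups overlapped, although EpiLC WT replicate 1 and EpiLC KO replicate 1 lay close together. The naive call was lost on leaving out naive WT replicate 2 or 3 or naive KO replicate 1 or 3 (adjusted p from 0.053 to 0.0712). The EpiLC call was lost on leaving out EpiLC WT replicate 2 or 3, EpiLC KO replicate 2 or 3, naive WT replicate 3 or naive KO replicate 1 (adjusted p from 0.0504 to 0.113). In the KO transition its log2 fold change of 0.43 ± 0.221 did not pass (adjusted p = 0.118), and passed with the clone as a block (0.44, adjusted p = 0.0149).

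Slc7a7 went from a minor light chain to a major one on the change of medium. Its level was 2.69 ± 0.771 RPKM in naive WT, 1.91 ± 0.796 in naive KO, 49.9 ± 23.8 in EpiLC WT and 50.2 ± 11.1 in EpiLC KO. It rose by 4.21 ± 0.401 on the log2 scale in WT (adjusted p = 3.15e-06) and by 4.71 ± 0.412 in KO (adjusted p = 1.34e-06), and did not pass between KO and WT in either condition. As a share of the summed RPKM of the 5 light chain genes it made up 1.72% to 2.99% in naive libraries, 14.5% to 28.7% in EpiLC WT and 28.5% to 41.6% in EpiLC KO. Slc7a7 and Slc7a8 lie near each other on chromosome 14, and the genes within 1 Mb of Slc7a7 were low in the WT libraries numbered 2, by a median of -0.52 from their group mean (log2) in naive cells and -0.79 in EpiLCs. EpiLC WT replicate 2 had the lowest Slc7a7 level of the EpiLC libraries, 26.6 RPKM, and the part of the segment in this was not tested.

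Slc7a8 and Slc7a11 stayed under 2 RPKM in every library. Slc7a11 rose by 2.21 ± 0.274 in the WT transition and by 1.90 ± 0.273 in KO (adjusted p = 2.68e-05 and 8.07e-05), to 1.34 ± 0.212 RPKM in EpiLC WT and 0.846 ± 0.0659 RPKM in EpiLC KO. Its EpiLC KO against WT change of -0.66 ± 0.26 did not pass (adjusted p = 0.107), and passed with the GC trend removed (-1.03, adjusted p = 0.0186) and without naive WT replicate 2 (-0.65, adjusted p = 0.0258). Slc7a8 rose by 0.93 ± 0.336 in WT (adjusted p = 0.0333) and by 0.96 ± 0.341 in KO (adjusted p = 0.0304). Both of its calls were lost with the clone as a block (adjusted p = 0.0621 and 0.0554) and without any of several single libraries (naive WT 1 or 3 or EpiLC WT 1 or 3 for WT, naive KO 1 or 2 or EpiLC KO 1 or 2 for KO, adjusted p from 0.069 to 0.126).

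**Figure D4:**
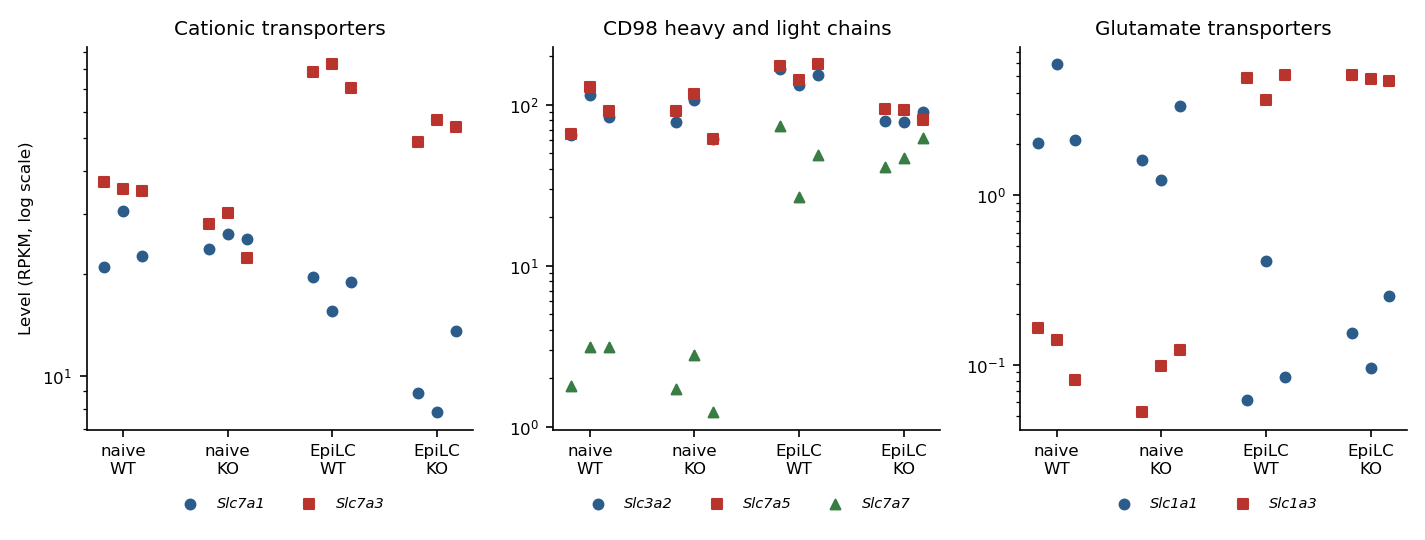
Level in RPKM (y axis, log scale) of cationic transporter, CD98 complex and glutamate transporter genes in each of the 12 libraries (x axis, 1 point per library and gene, 3 libraries per group). Slc7a7 and Slc1a3 sit low in the naive libraries and high in the EpiLC libraries, Slc1a1 does the reverse, and Slc3a2 and Slc7a5 lie almost on top of each other.

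ASCT1 (Slc1a4) and ASCT2 (Slc1a5) are sodium-dependent exchangers of small neutral amino acids: ASCT2 is a main entry route for glutamine, and ASCT1 handles alanine, serine, cysteine and threonine. Slc1a5 (chromosome 7, 16781340 to 16798274, GRCm38) had the lowest adjusted p of the 30 genes in EpiLC KO against WT. Its libraries held 27.0, 43.9 and 29.9 RPKM in naive WT and 19.2, 26.8 and 16.7 RPKM in naive KO. In EpiLCs they held 30.2, 26.6 and 25.1 RPKM in WT and 11.0, 11.3 and 12.3 RPKM in KO. The naive groups nearly touched, and in EpiLCs the highest KO library, at 12.3 RPKM, lay far below the lowest WT library, at 25.1 RPKM. Slc1a5 fell by 1.24 ± 0.193 in EpiLC KO (adjusted p = 0.00164) and by 0.68 ± 0.19 in naive KO (adjusted p = 0.0419), and from naive cells to EpiLCs it fell by 0.86 ± 0.192 in KO (adjusted p = 0.00206), with -0.30 ± 0.19 in WT (adjusted p = 0.204). The WT transition passed with the GC trend removed and the clone as a block (-0.48, adjusted p = 0.0389). The EpiLC KO call held without any single library. The naive call was lost with the GC trend removed (-0.50, adjusted p = 0.124), with only the groups compared in the fit (adjusted p = 0.0996) and on leaving out naive WT replicate 2 or 3, naive KO replicate 1 or 3, EpiLC WT replicate 3 or any EpiLC KO replicate (adjusted p from 0.0516 to 0.139).

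Slc1a4 libraries held 10.4, 16.8 and 16.5 RPKM in naive WT, 14.1, 20.1 and 10.2 RPKM in naive KO, 32.1, 21.8 and 34.8 RPKM in EpiLC WT and 17.6, 14.1 and 12.1 RPKM in EpiLC KO. The naive groups overlapped and the EpiLC groups did not. It fell by 1.02 ± 0.261 in EpiLC KO (adjusted p = 0.0219), a call lost on leaving out EpiLC WT replicate 1 or 3 or EpiLC KO replicate 2 or 3 (adjusted p from 0.0623 to 0.0788). It rose by 1.02 ± 0.262 in the WT transition (adjusted p = 0.00554), with -0.02 ± 0.26 in KO. The interaction of -1.04 did not pass for Slc1a4 (adjusted p = 0.253).

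Slc1a4 and Slc7a11 are among the known ATF4 targets. ATF4 with its partners binds the amino acid response element, searched here as TGATGNAA on both strands (N is any base). RefSeq promoter windows of 300 bases (250 before and 50 after each start site, GRCm38.p6) were at hand for 21 of the 30 genes, and 3 of these 21 (14.3%) held a match: Slc1a4, Slc7a11 and Slc7a7. Of all 27025 genes with a window 4.51% held one, and of the 12348 tested genes with a window 2.79%. Of the 10 genes that fell in EpiLC KO, 6 had a window and only Slc1a4 a match. Genes without a window, and sequence outside the windows such as introns, were not searched, so matches may lie there. A match is a run of letters and not a measured site. The stretches below are shown because they hold the matches, in capitals, from 150 bases before to 30 bases after a start site. All 3 lie on the minus strand, at chr11:20332684-20332863 for Slc1a4, chr3:50443584-50443763 for Slc7a11 and chr14:54417915-54418094 for Slc7a7. Of the 5 RefSeq windows of Slc7a7, 2 overlapping ones hold a match and 3 hold none, and the stretch is from the window with 2 matches. That whole stretch lies upstream of the Slc7a7 gene as counted, which runs from 54369442 to 54417780.
Slc1a4: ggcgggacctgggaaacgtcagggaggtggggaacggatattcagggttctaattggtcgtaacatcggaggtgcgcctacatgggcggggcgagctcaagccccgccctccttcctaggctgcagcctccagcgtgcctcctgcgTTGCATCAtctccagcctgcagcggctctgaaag
Slc7a11: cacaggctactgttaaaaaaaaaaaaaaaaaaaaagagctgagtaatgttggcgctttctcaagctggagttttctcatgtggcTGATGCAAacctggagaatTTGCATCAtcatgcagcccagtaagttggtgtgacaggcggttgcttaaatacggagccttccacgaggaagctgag
Slc7a7: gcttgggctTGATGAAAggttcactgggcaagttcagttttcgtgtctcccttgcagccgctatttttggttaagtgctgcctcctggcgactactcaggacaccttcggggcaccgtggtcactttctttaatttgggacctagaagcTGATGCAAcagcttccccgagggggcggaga
The Slc1a4 match spans the start site itself, from position -4 to 4 where the first transcribed base is 1. The Slc7a11 matches lie at -66 to -59 and, on the other strand, at -47 to -40. The Slc7a7 matches lie at -141 to -134 and at -1 to 7, and the latter also falls in the window of another start site, at -243 to -236.

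The amino acid response genes that are not transporters, a list of 30 that includes Atf4, gave a larger count: 22 of the 30 fell in EpiLC KO and none rose, with a median log2 fold change of -1.40. Over all genes tested, 7.86% fell and 7.22% rose there. The list was drawn up with earlier results of these data known. Atf4 went from 584.1 ± 79.9 CPM in EpiLC WT to 184.2 ± 10.9 CPM in EpiLC KO, a fall of 1.67 ± 0.172 on the log2 scale (adjusted p = 0.000172). Asns, asparagine synthetase, fell by 1.18 ± 0.109 (adjusted p = 9.06e-05), and the stress-response gene Nupr1 fell by 3.33 ± 0.43 (adjusted p = 0.00058). Shmt2, the mitochondrial serine hydroxymethyltransferase, fell from 488 to 169.6 CPM on average. Averaged over the list, log2 CPM came to 7.02, 6.50 and 7.05 in the EpiLC WT libraries and 5.63, 5.44 and 5.54 in the EpiLC KO libraries. In naive libraries it was 6.06, 7.14 and 6.47 in WT and 6.10, 6.59 and 5.74 in KO, where the groups overlapped. In naive KO 2 of the 30 fell, beside 4.95% of all genes tested. The part of these genes in the transporter results was not tested.

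**Figure D5:**
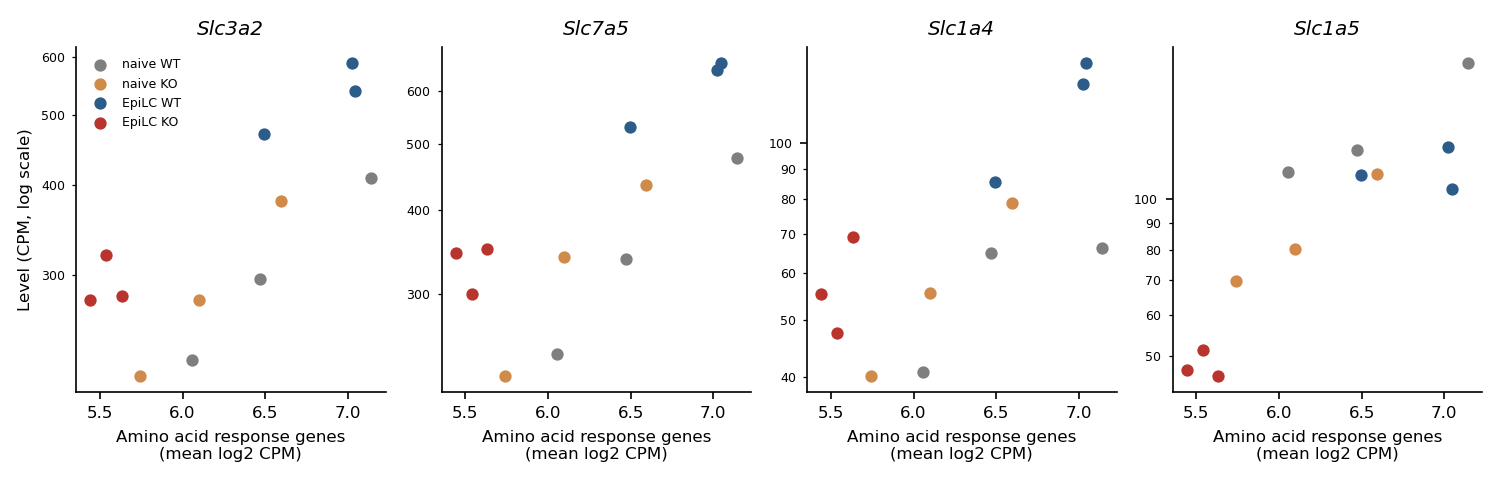
Mean log2 CPM of the 30 amino acid response genes that are not transporters (x axis) against the level of Slc3a2, Slc7a5, Slc1a4 and Slc1a5 (y axis, CPM on a log scale), 1 point per library, coloured by group. The EpiLC KO libraries lie at 5.44 to 5.63 on the x axis, below every other library.

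Glutamate enters cells through EAAC1 (Slc1a1), GLT-1 (Slc1a2) and GLAST (Slc1a3), which are best known from neurons and glia. These genes changed places between the media. Slc1a1 held 2.01, 5.89 and 2.11 RPKM in naive WT and 0.0618, 0.407 and 0.0846 RPKM in EpiLC WT, a fall of 4.21 ± 0.719 (adjusted p = 0.000338), and fell by 3.62 ± 0.699 in KO (adjusted p = 0.000749). Slc1a3 rose from 0.128 ± 0.0431 RPKM in naive WT to 4.55 RPKM in EpiLC WT, by 5.16 ± 0.293 (adjusted p = 4.48e-08), and by 5.74 ± 0.303 in KO (adjusted p = 2.15e-08). Of the summed RPKM of the pair, Slc1a3 made up 2.31% to 7.58% in naive libraries and 89.9% to 98.8% in EpiLC libraries. EpiLC WT replicate 2, with its higher naive markers, had the highest Slc1a1 level and the lowest Slc1a3 share of the EpiLC libraries. Exons of another gene, 4430402I18Rik, overlap 31.9% of the Slc1a1 exon length, so part of its counts is uncertain.

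Slc1a2 was close to undetected in naive cells, with 1, 2 and 2 counts in WT and 0, 0 and 1 in KO. In EpiLCs it had 25, 9 and 18 counts in WT and 34, 39 and 63 in KO, at most 0.135 RPKM. Slc1a2 passed the low-count filter only through its EpiLC libraries, so its upward calls in both transitions carry little weight. No fold is given because its naive counts lie at or under the 3 counts taken as the floor. None of the 3 glutamate transporter genes passed between KO and WT in either condition.

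The SLC38 family holds sodium-coupled neutral amino acid transporters. SNAT2 (Slc38a2) adapts to amino acid supply, and SNAT1 (Slc38a1) and SNAT4 (Slc38a4) are its neighbours on chromosome 15. Slc38a2 libraries held 21.3, 27.9 and 25.1 RPKM in naive WT and 26.4, 24.7 and 20.8 RPKM in naive KO. In EpiLCs they held 120.5, 116 and 114 RPKM in WT and 86.3, 76.2 and 99.0 RPKM in KO. Both EpiLC groups were far above the naive groups, and the EpiLC KO libraries were all lower than the EpiLC WT libraries. Slc38a2 rose by 2.24 ± 0.129 in the WT transition (adjusted p = 5.07e-08) and by 1.86 ± 0.127 in KO (adjusted p = 1.76e-07). Between KO and WT in EpiLCs it fell by 0.42 ± 0.123 (adjusted p = 0.0374), the smallest of the 10 falls, and lost the call with only the groups compared in the fit (adjusted p = 0.0504), with a stricter filter of a mean of 1 CPM (adjusted p = 0.0544) and without any of EpiLC WT replicates 1, 2 and 3, EpiLC KO replicates 1 and 2, or naive WT replicate 3 (adjusted p from 0.0516 to 0.128).

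Slc38a4, an imprinted gene, was the highest SLC38 gene in naive cells. Its libraries held 44.6, 72.3 and 41.3 RPKM in naive WT, 78.0, 83.7 and 90.8 RPKM in naive KO, 40.9, 75.4 and 43.7 RPKM in EpiLC WT and 53.3, 41.5 and 63.0 RPKM in EpiLC KO. The WT libraries numbered 2 were the high ones in both media, and every naive KO library was higher than every naive WT library. The naive KO against WT change of 0.67 ± 0.251 did not pass (adjusted p = 0.118). It passed without naive WT replicate 2 (0.94, adjusted p = 0.0409), without EpiLC WT replicate 2 (adjusted p = 0.0433) and without both (0.97, adjusted p = 0.00266). In the KO transition it fell by 0.68 ± 0.251 (adjusted p = 0.0355), a call lost without naive KO replicate 1, 2 or 3 or EpiLC KO replicate 1 or 2 (adjusted p from 0.0581 to 0.131). The level ratio of Slc38a2 to Slc38a4 was 0.23 to 0.61 in naive libraries and 1.54 to 2.95 in EpiLC libraries.

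Slc38a7, a transporter of glutamine out of the lysosome, fell in both transitions and in EpiLC KO. Its libraries held 19.2, 22.8 and 19.5 RPKM in naive WT, 19.5, 21.1 and 16.4 RPKM in naive KO, 12.6, 8.64 and 12.7 RPKM in EpiLC WT and 6.63, 6.30 and 7.05 RPKM in EpiLC KO. Naive groups overlapped, and the EpiLC KO libraries were all lower than the EpiLC WT libraries. The EpiLC KO change was -0.77 ± 0.152 (adjusted p = 0.00626), a call that held without any single library. The transitions were -0.86 ± 0.151 in WT (adjusted p = 0.000436) and -1.51 ± 0.153 in KO (adjusted p = 4.58e-06), and the interaction of -0.66 did not pass (adjusted p = 0.214). It passed without EpiLC WT replicate 2 (-0.82, adjusted p = 0.0476) and without both WT libraries numbered 2 (-0.90, adjusted p = 0.0338).

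Slc38a1 rose by 0.92 ± 0.299 in the WT transition (adjusted p = 0.0199), a call lost without naive WT replicate 1 or 3 or EpiLC WT replicate 1 or 3 (adjusted p from 0.054 to 0.077), and had -0.68 ± 0.298 in EpiLC KO (adjusted p = 0.146, and 0.0384 without naive KO replicate 3). Slc38a10 fell in both transitions, by 0.72 ± 0.126 in WT and by 0.65 ± 0.126 in KO. Slc38a3 rose in both from levels under 0.1 RPKM. Slc38a6 was 1.86 ± 0.135 RPKM in naive KO and 1.32 ± 0.148 RPKM in naive WT, without overlap, a change of 0.50 ± 0.146 that did not pass in edgeR (adjusted p = 0.052), and passed in DESeq2 (adjusted p = 0.00322) and without EpiLC WT replicate 2 (adjusted p = 0.0478). Slc38a9, which signals lysosomal arginine to mTORC1, did not pass in the WT transition (0.58, adjusted p = 0.0827), and passed with the clone as a block (0.58, adjusted p = 0.0377) and without EpiLC WT replicate 2 (0.73, adjusted p = 0.039).

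The SLC6 family couples uptake to sodium and chloride. Slc6a8 carries creatine, which is not built into protein, and lies on the X chromosome. Its libraries held 38.0, 35.4 and 38.6 RPKM in naive WT, 24.8, 21.8 and 31.2 RPKM in naive KO, 17.6, 32.1 and 14.6 RPKM in EpiLC WT and 9.26, 10.0 and 14.4 RPKM in EpiLC KO. KO libraries were lower than WT libraries in both media without overlap, although EpiLC WT replicate 3 and EpiLC KO replicate 3 nearly met. Slc6a8 fell by 0.94 ± 0.256 in EpiLC KO (adjusted p = 0.029), a call lost without EpiLC WT replicate 2 (-0.52, adjusted p = 0.0725), without EpiLC KO replicate 1 or 2 (-0.81 and -0.86, adjusted p = 0.113 and 0.0899), with the GC trend removed (-0.78, adjusted p = 0.0637) and with only the groups compared in the fit (adjusted p = 0.0838). In naive KO its change of -0.53 ± 0.254 did not pass (adjusted p = 0.232), and passed with only the groups compared in the fit (-0.52, adjusted p = 0.046) and with no filter on low counts (adjusted p = 0.0291). It fell in both transitions, by 0.80 ± 0.255 in WT (adjusted p = 0.0182, lost without EpiLC WT replicate 1 or 3, at 0.0743 and 0.0746) and by 1.21 ± 0.258 in KO (adjusted p = 0.00152).

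Slc6a6, the taurine transporter gene, fell by 0.91 ± 0.0823 in the WT transition (adjusted p = 1.97e-06) and by 1.04 ± 0.0825 in KO (adjusted p = 6.01e-07), and its EpiLC KO against WT change was -0.06 ± 0.0817 (adjusted p = 0.679). It had the smallest standard errors of the 30 genes. Slc6a9, the glycine transporter GLYT1, held 5.17, 2.33 and 6.14 RPKM in EpiLC WT and 2.29, 1.52 and 1.87 RPKM in EpiLC KO. Its KO libraries were all lower, though the change of -1.26 ± 0.4 missed the threshold (adjusted p = 0.0508). It passed without EpiLC WT replicate 2 (-1.58, adjusted p = 0.0124), without naive WT replicate 1 or 2 or naive KO replicate 3 (adjusted p from 0.0356 to 0.0434) and in DESeq2 (adjusted p = 0.0142). Slc6a9 rose by 1.59 ± 0.405 in the WT transition (adjusted p = 0.0052). Exons of neighbouring genes overlap 30.2% of its exon length. Slc6a15, a transporter of branched-chain amino acids and proline, had 0.82 in the KO transition, which did not pass (adjusted p = 0.117), and passed with the clone as a block (0.97, adjusted p = 0.00911) and without naive KO replicate 3 (1.55, adjusted p = 0.00399).

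The SLC36 family transporters PAT1 (Slc36a1) and PAT4 (Slc36a4) moved in opposite directions on the change of medium. Slc36a1 fell by 1.49 ± 0.151 in WT (adjusted p = 5.29e-06) and by 0.96 ± 0.148 in KO (adjusted p = 0.00014). Slc36a4 was low throughout, with 25, 25 and 43 counts in naive WT, 15, 8 and 9 in naive KO, and 91, 31 and 62 in EpiLC WT. In EpiLC KO it had 103, 93 and 88 counts. The naive KO libraries were the lowest of the 12 for this gene. It fell by 1.53 ± 0.369 in naive KO (adjusted p = 0.0222), a call lost on leaving out naive WT replicate 3 or naive KO replicate 2 or 3 (adjusted p from 0.0512 to 0.0804). It rose by 1.04 ± 0.328 in the WT transition (adjusted p = 0.0171) and by 2.94 ± 0.362 in KO (adjusted p = 2.25e-05). The WT rise was lost without naive WT replicate 1 or 2 or EpiLC WT replicate 1 (adjusted p from 0.0594 to 0.0822). The interaction of 1.89 ± 0.484 did not pass in edgeR (adjusted p = 0.128) and passed in DESeq2 (adjusted p = 0.0173).

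LAT3 (Slc43a1) and LAT4 (Slc43a2) let large neutral amino acids pass without a partner or an ion. Both rose on the change of medium: Slc43a1 by 1.59 ± 0.222 in WT (adjusted p = 7.31e-05) and by 1.35 in KO (adjusted p = 0.000198), and Slc43a2 by 1.59 ± 0.149 in WT (adjusted p = 2.71e-06) and by 1.43 ± 0.148 in KO (adjusted p = 5.42e-06). Between genotypes neither passed. Slc43a1 was 1.57 ± 0.234 RPKM in naive KO and 0.979 ± 0.162 RPKM in naive WT, a change of 0.68 ± 0.22 (adjusted p = 0.0737) that passed in DESeq2 (adjusted p = 0.0379), with the GC trend removed (adjusted p = 0.0469) and without EpiLC WT replicate 2 (adjusted p = 0.0342).

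Other genes of amino acid handling were tested in the same fit, in which 7.86% of all genes fell and 7.22% rose in EpiLC KO. Of 12 mitochondrial amino acid carrier genes tested, 2 fell in EpiLC KO and none rose: Sfxn3, a serine carrier, fell by 1.32 ± 0.272 (adjusted p = 0.00753) and Slc25a13, the aspartate-glutamate carrier citrin, by 0.43 ± 0.114 (adjusted p = 0.0251). Of 31 genes that relay amino acid supply to mTORC1, 2 fell there and none rose: Itfg2, a subunit of the KICSTOR complex, fell by 0.59 ± 0.136 (adjusted p = 0.0132) and Wdr59, a subunit of GATOR2, by 0.45 ± 0.11 (adjusted p = 0.0169). That share is near the share over all genes. Of the 4 lysosomal exporter genes tested, none passed in EpiLC KO, and 3 fell in each transition, where 26.3% of all genes fell in WT and 28.1% in KO, among them the cystine exporter gene Ctns by 0.87 ± 0.14 in WT. Of 23 further genes of amino acid transporter families, 8 passed the filter and 16 stayed under 1 CPM in every library, with Slc1a6 in both sets. Where in the cell their proteins act was not tested. Of the 8, only Slc7a14 was called in EpiLC KO: it rose in KO in both conditions, and went from 0.157 to 2.90 CPM on average in EpiLCs (4.16 ± 0.436, adjusted p = 0.000176).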

How the data were processed

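The authors deposited 1 table of raw read counts per gene for the 12 libraries. Per the file headers, it was made with featureCounts 2.0.1 on GENCODE vM25, with no option for strand, read pairs or multi-mapping reads, so that reads of overlapping or antisense genes may be misassigned. Per the submitters' processing notes, fastp, FastQC, STAR and DESeq2 were used with the build GRCm38/mm10, and the library kit was TruSeq Stranded mRNA per the labels. The deposited exon length per gene, another column per the file headers, was used for RPKM. Of the 55487 genes, 346 had no symbol and took at most 0.0312% of the counts of a library. Every count column was used.

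Counts were scaled by TMM and tested in edgeR 4.0.16 (R 4.3.3) by the quasi-likelihood test, in a single fit of 4 group means over all 12 libraries with 8 residual degrees of freedom. Genes were kept by filterByExpr (minimum count 10, minimum total 15). A standard error is the absolute log2 fold change over the root of F, and every adjusted p is from edgeR with Benjamini-Hochberg adjustment unless DESeq2 1.42.0 is named. The script was tested on simulated data. The 5 contrasts and the alternatives (RLE scaling, DESeq2, other filters, a replicate block, GC correction by loess with a span of 0.3, only the groups compared, each library left out) are those of the closing section. Per the labels the clones of a group are independent.

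Replicate numbers paired the naive and EpiLC libraries of a genotype: deviations from the group means correlated at 0.218 to 0.236 for the 3 WT pairs and at 0.145 to 0.264 for the 3 KO pairs. The labels do not say that a number marks a clone, so the block by clone rests on this check.

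The members, the gene lists and the markers were chosen with earlier results of these data known. Full values per library are given for the members called in either KO against WT comparison and for the 5 with the highest mean RPKM, and of each pathway list up to 4 genes with the lowest adjusted p in EpiLC KO; members outside this rule that are given in full were chosen after their values were seen. Promoter windows are from RefSeq.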

Additional observations from a re-analysis of the deposited data

How the results depend on the processing

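Of the alternatives tried, none reversed the direction of a called value. Counts of called members are given here for the alternatives that moved them by over 1.5 times, and other changes in EpiLC KO and naive KO after them. Leaving out each library in turn, between 0 and 4 members fell in naive KO (4 with all libraries) and between 0 and 3 rose (0 with all). In EpiLC KO, 4 to 12 fell (10 with all) and 0 rose, and the WT transition had 12 to 17 risen and 5 to 7 fallen. The KO transition had 10 to 12 risen and 8 to 9 fallen, and the interaction 0 to 1 fallen and 0 risen. Of the 5 highest members by RPKM, 5 stayed so. In naive KO, 1 fell without both libraries of WT clone 2, an alternative chosen after seeing the data, and the count that rose became 2 with DESeq2, 1 with no filter on low counts, 1 with a mean of at least 1 CPM, 1 with the GC trend removed and 2 without WT clone 2. For the interaction, 4 members fell with no low-count filter (Slc1a4, Slc3a2, Slc7a1 and Slc7a5), 1 with the GC trend removed and the clone as a block (Slc38a4), and 1 without WT clone 2 (Slc38a7), and 1 rose with DESeq2 (Slc36a4). The falls in EpiLC KO numbered 12 with no filter (Slc38a1 and Slc6a9 gained), 11 with DESeq2 (Slc6a9 gained), 11 with only the groups compared (Slc38a1, Slc6a9 and Slc7a11 gained, Slc38a2 and Slc6a8 lost), 9 with the GC trend removed (Slc7a11 gained, Slc6a8 and Slc7a5 lost) and 9 with a mean of at least 1 CPM (Slc38a2 lost). Those in naive KO numbered 5 with no filter (Slc6a8 gained), 3 with the GC trend removed (Slc1a5 lost) and 3 with only the groups compared (Slc6a8 gained, Slc1a5 and Slc7a3 lost). The cause was not tested. Of the single-member values under alternatives, 2898 kept their side of the threshold, 93 lost a call and 58 gained one.

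With the replicate number as a block, 4 members fell in naive KO and 9 in EpiLC KO, with Slc38a2 lost (adjusted p = 0.0606). The numbers of WT and KO clones did not pair (correlations from -0.266 to 0.0037). With the clone as a block, 16 rose and 6 fell in the WT transition, 12 rose and 9 fell in the KO transition and none passed in the interaction. It changed no transition or interaction call of a member other than those of Slc7a8, Slc7a6, Slc38a9 and Slc6a15 given above. The low counts of Slc38a3 and Slc1a2, at most 45 and 63 per library, limit what can be seen for these genes.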
